A study of Mus musculus with 6 samples.

Results

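The receptors for the cytokines that activate natural killer (NK) cells were followed in Ly49G+ and Ly49I+ NK cells of mouse spleen. The members are the chains of the receptors for IL-12, IL-18, IL-33 and type I and type II interferon, chosen by gene symbol. Of 9 listed chains, 7 were measured among 8520 genes, namely Il12rb1, Il12rb2, Il18r1, Il18rap, Ifnar1, Ifnar2 and Ifngr1. Il1rl1, which encodes the IL-33 receptor chain ST2, and Ifngr2 were not analysed here.

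Both populations came from untreated C57BL/6Ncr mice aged 6 to 8 weeks, with spleens of 20 mice named as the source, and both were sorted by flow cytometry as CD3-negative and NK1.1-positive. The Ly49G+ group was positive for Ly49G and negative for Ly49C/I, and the Ly49I+ group was positive for Ly49C/I and negative for Ly49G. Ly49 receptors are lectin-like proteins that recognise MHC class I molecules, and the Ly49I+ group was picked with an antibody that does not tell Ly49I from Ly49C. Each group has 3 libraries described as biological replicates, with no word on how the mice were divided among them, so each p-value rests on library-to-library spread, which may be technical.

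IL-12 binds a receptor of the chains IL-12Rβ1 and IL-12Rβ2, which signals through the kinases TYK2 and JAK2 to the transcription factor STAT4. IL-18 binds the chain encoded by Il18r1, and the accessory chain encoded by Il18rap then joins to signal through the adaptor MyD88. Together these cytokines are known to induce interferon gamma in NK cells, while type I interferon, sensed by IFNAR1 and IFNAR2, raises NK cytotoxicity and interferon gamma is sensed by IFNGR1 with IFNGR2.

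Library totals ran from 33599679 to 40892154 reads, and the members had between 1079 and 41771 reads in each library, so the spread between libraries and not counting limits their precision. Klra7, which encodes Ly49G, was higher in Ly49G+ cells by 6.44 ± 0.08 on the log2 scale (SE), and Klra9, which encodes Ly49I, differed by -3.77 ± 0.09, in the direction of the labels. All 10 NK markers on a fixed list were measured, with summed levels of 12631 to 13064 counts per 1000000 reads (CPM) in Ly49G+ and 13097 to 13850 CPM in Ly49I+ libraries. Transcripts listed as markers of other cells were also read, and whether they came from other cells or from the sorted NK cells was not tested. Of 10 measured monocyte and macrophage markers 9 were lower in Ly49G+, and the list summed to 144 to 171 CPM in Ly49G+ and 513 to 1368 CPM in Ly49I+ libraries, highest in Ly49I+ replicate 2. Ly6c2, among the 9, is also expressed by mature NK cells. At 117 ± 21.2 CPM in Ly49G+ and 253 ± 8.36 CPM in Ly49I+ (SD, n = 3 each), it made up most of the sum in each Ly49G+ library. Its log2 difference was -1.13, while the other called markers ran from -5.44 (Ace) to -3.45 (Lyz2). The sums thus understate how far those markers differed. Cst3, not called, differed by -0.79. Of 8 measured T cell markers 5 were higher in Ly49G+, with sums of 374 to 449 CPM in Ly49G+ and 261 to 276 CPM in Ly49I+ libraries. The 5 were Cd3d, Cd3e, Cd3g, Trac and Cd28. Cd3e differed most, at 13.1 ± 4.84 CPM in Ly49G+ and 0.958 ± 0.326 CPM in Ly49I+ libraries (SD, n = 3 each). Bcl11b, on the same list but not called, had a log2 difference of -0.02 ± 0.18 (SE). Cd4, Cd8a, Cd8b1, Cd5 and Cd6 of that list were not among the measured genes. Of 3 measured B cell markers 0 passed limma's test, with 0 at an unadjusted p under 0.05. Of 4 measured markers of other innate lymphoid cells and mast cells 1, Il7r, was higher in Ly49G+. With the replicate number as a block, the monocyte and macrophage list had 10 lower calls, the T cell list 6 higher and the B cell list 1 higher. The NK list then had 1 higher and 3 lower calls, against 1 and 2 without the block, and the list of other innate lymphoid cells and mast cells 2 higher and 1 lower. Of all genes 3.59% passed without the block and 11.7% with it.

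None of the 7 receptor genes passed the test between the populations, which was limma's moderated test on the log2 CPM with Benjamini-Hochberg adjustment over all genes at 0.05. Of all genes tested 3.59% passed in either direction, 1.82% higher and 1.77% lower in Ly49G+. The count of members at an unadjusted p under 0.05 was 2 of 7, where 19.8% of all genes reached it. These 2 were Il12rb2 and Il18rap, the signalling chain of the IL-12 receptor and the accessory chain of the IL-18 receptor, and both had lower values in Ly49G+ cells by about the same amount. In a fit that takes the replicate number as a block both passed, where 11.7% of all genes passed, 5.69% higher and 5.96% lower in Ly49G+. Over the 7 members the median log2 difference was -0.09, against -0.02 over all genes, and 5 were below zero and 2 above it.

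**Figure D1:**
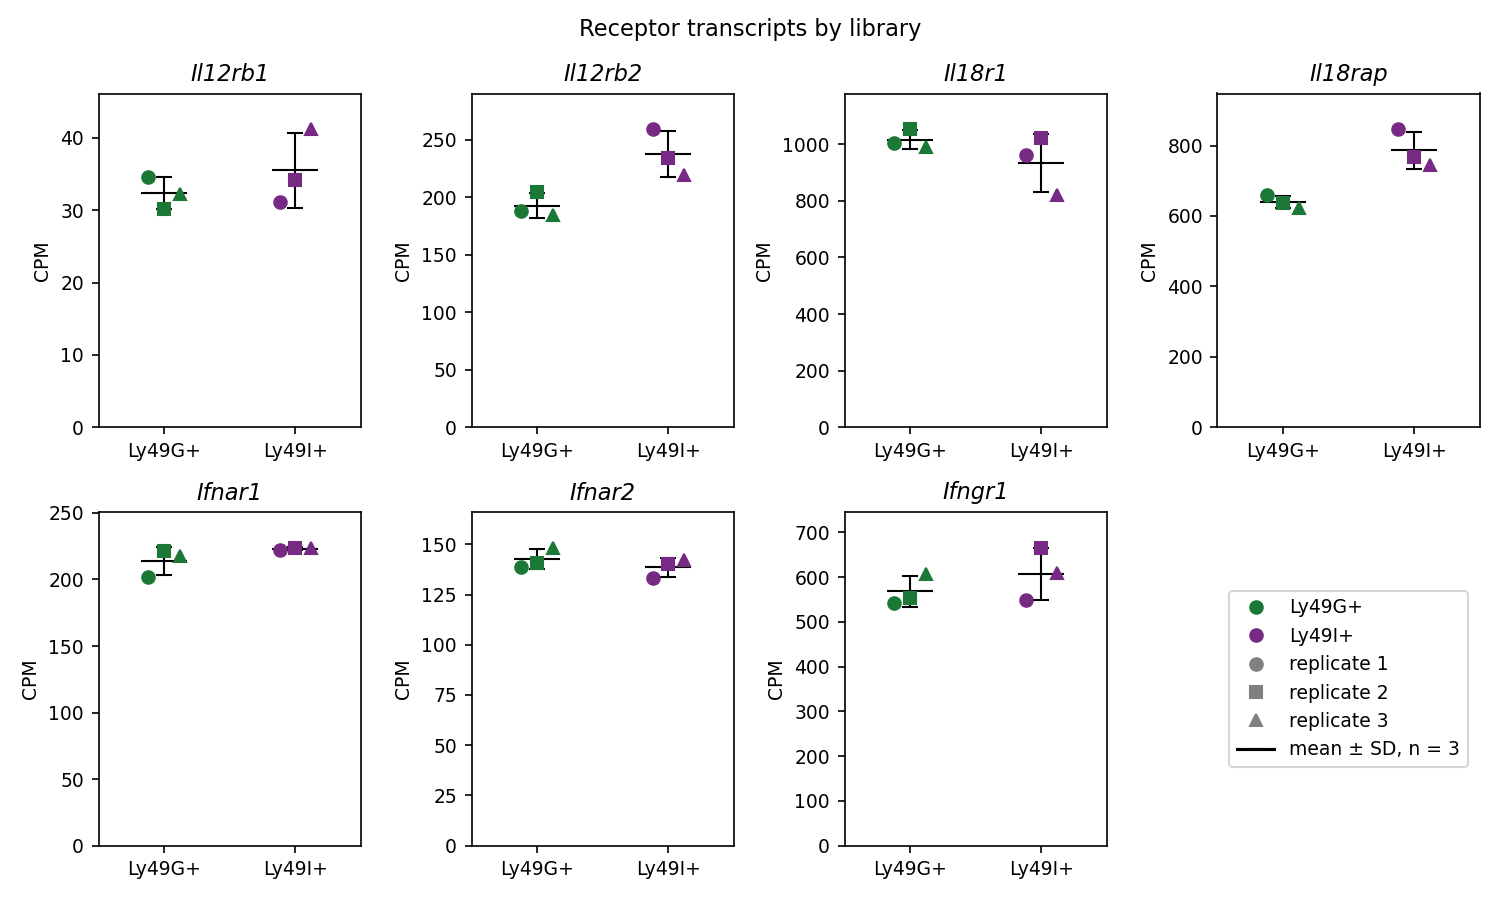
Level of each measured receptor transcript in CPM, with Ly49G+ libraries on the left and Ly49I+ libraries on the right of each panel, each marker shape being a replicate number and the black bars the mean ± SD of 3 libraries. Il12rb2 and Il18rap show every Ly49G+ library below every Ly49I+ library, and the Ifnar1 groups lie next to each other without overlap.

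Values of single libraries are given in the order of replicates 1, 2 and 3. The IL-12 receptor chains differed from each other in level and in pattern. Il12rb2 (gene 16162, GRCm38.p6 chromosome 6, 67285986 to 67376293) had 188, 205 and 185 CPM in the Ly49G+ libraries, against 259, 235 and 219.7 CPM in the Ly49I+ libraries. Every Ly49G+ library was lower than every Ly49I+ library. The means were 193 ± 10.8 CPM in Ly49G+ and 238 ± 20.0 CPM in Ly49I+ cells (SD, n = 3 each). The log2 difference of Ly49G+ minus Ly49I+ was -0.30 ± 0.08 (SE, limma adjusted p = 0.0761, and 0.0156 with the replicate block). As a ratio of Ly49G+ over Ly49I+ this is 0.811, with a 95% interval of 0.714 to 0.92. Il12rb2 was lower in Ly49G+ in 3 of 3 replicate numbers, which follows from the lack of overlap under any pairing. Without Ly49I+ replicate 3, the lowest Ly49I+ library for this gene, the limma adjusted p was 0.0334. Il12rb2 shares 3317 bases with Serbp1, an RNA-binding protein gene on the opposite strand, and whether the authors counted by strand is not stated in the labels. Serbp1 went the other way, at 671 ± 31.8 CPM in Ly49G+ and 554 ± 25.7 CPM in Ly49I+ cells (SD, n = 3 each), and its part in the Il12rb2 value was not tested.

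The bases before the start of Il12rb2 and Il18rap are shown because these were the members with the largest differences, both toward lower values in Ly49G+. They come from RefSeq promoter windows of GRCm38.p6, trimmed to bases outside RefSeq genes and GENCODE exons, on the strand of the gene. Of the 9 listed chains 8 had a promoter window. Capitals mark matches to TTCNNNGAA, the gamma-activated site that STAT factors are known to bind, and to GAGGAAGT, an ETS factor core.
Il12rb2, chr6:67376294-67376438, minus strand: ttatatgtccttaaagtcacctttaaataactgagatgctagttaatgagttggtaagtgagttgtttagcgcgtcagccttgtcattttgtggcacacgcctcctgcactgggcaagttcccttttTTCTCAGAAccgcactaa
Il18rap, chr1:40515112-40515361, plus strand: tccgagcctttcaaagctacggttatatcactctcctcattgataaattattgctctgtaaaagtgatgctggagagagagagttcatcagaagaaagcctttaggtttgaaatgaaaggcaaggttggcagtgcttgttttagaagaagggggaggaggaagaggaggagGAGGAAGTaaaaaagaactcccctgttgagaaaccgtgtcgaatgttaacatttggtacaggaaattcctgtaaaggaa
The search covered both strands of the full windows and also TCACACC (T-box) and TGTGGTT (RUNX). Within the printed bases the Il12rb2 run held the match TTCTCAGAA and the Il18rap run held GAGGAAGT. The Il18rap window also held the RUNX letters, after the start. TTCNNNGAA was found as well in windows of Il18r1, Ifnar1 and Ifnar2, and TGTGGTT in a window of Il18r1. Over 27025 promoter windows of the same length, 1 per gene, 8.47% held TTCNNNGAA, 3.28% GAGGAAGT, 3.96% TCACACC and 5.37% TGTGGTT. Among the 6842 windows of measured genes the shares were 7.18%, 3.39%, 3.10% and 3.54%. The members were searched in all their windows, 3 for Il18r1, so the shares are not like for like. A match describes letters in these windows and does not mark a bound site.

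Il12rb1 (gene 16161, chromosome 8, 70808360 to 70823542), whose product also serves the IL-23 receptor, was the least abundant member. It had 34.6, 30.1 and 32.3 CPM in the Ly49G+ libraries, against 31.2, 34.2 and 41.2 CPM in the Ly49I+ libraries. The groups overlapped, with the highest value in Ly49I+ replicate 3. The log2 difference was -0.13 ± 0.12 (SE, limma adjusted p = 0.559), with a 95% interval of -0.39 to 0.13.

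The IL-18 receptor chains, whose genes are neighbours, had differences of opposite sign, neither past the threshold in the fit without a block. Il18rap (gene 16174, chromosome 1, 40515362 to 40551707) had 659, 637 and 623 CPM in the Ly49G+ libraries, against 846, 768 and 744 CPM in the Ly49I+ libraries. The Ly49G+ libraries lay close together and all below the Ly49I+ libraries. The means were 639.6 ± 17.8 CPM in Ly49G+ and 786 ± 53.6 CPM in Ly49I+ cells (SD, n = 3 each), and the log2 difference was -0.30 ± 0.07 (SE, limma adjusted p = 0.0563, and 0.00958 with the replicate block). The ratio of Ly49G+ over Ly49I+ was 0.815, with a 95% interval of 0.727 to 0.913. Lower values in Ly49G+ in 3 of 3 replicate numbers follow from the lack of overlap. The limma adjusted p was 0.0324 without Ly49I+ replicate 3 and 0.0278 after quantile normalization. As with Il12rb2, the Ly49I+ library with the highest value was replicate 1 and that with the lowest was replicate 3.

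Il18r1 (gene 16182, chromosome 1, 40465552 to 40500854) ends 14507 bases before Il18rap starts. It had 1004, 1053 and 990.5 CPM in the Ly49G+ libraries, against 963, 1022 and 821 CPM in the Ly49I+ libraries. The groups overlapped, and Ly49I+ replicate 3 stood apart as the lowest library. The log2 difference was 0.12 ± 0.09 (SE, limma adjusted p = 0.444), with a 95% interval of -0.07 to 0.32. Without Ly49I+ replicate 3 the log2 difference was 0.03.

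The ratio of the IL-18 receptor chains did not overlap between the groups. The log2 ratio of Il18r1 over Il18rap, taken from CPM, was 0.61, 0.72 and 0.67 in the Ly49G+ libraries, against 0.19, 0.41 and 0.14 in the Ly49I+ libraries. All Ly49G+ libraries lay above all Ly49I+ libraries, with means of 0.67 ± 0.06 in Ly49G+ and 0.25 ± 0.14 in Ly49I+ (SD, n = 3 each). Per base of exon, Il18r1 was 1.61-fold above Il18rap in Ly49G+ and 1.2-fold above it in Ly49I+ cells. The ratio is a description with no test. It includes the Il18rap difference given above, and how often ratios of other gene pairs separate was not computed.

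**Figure D2:**
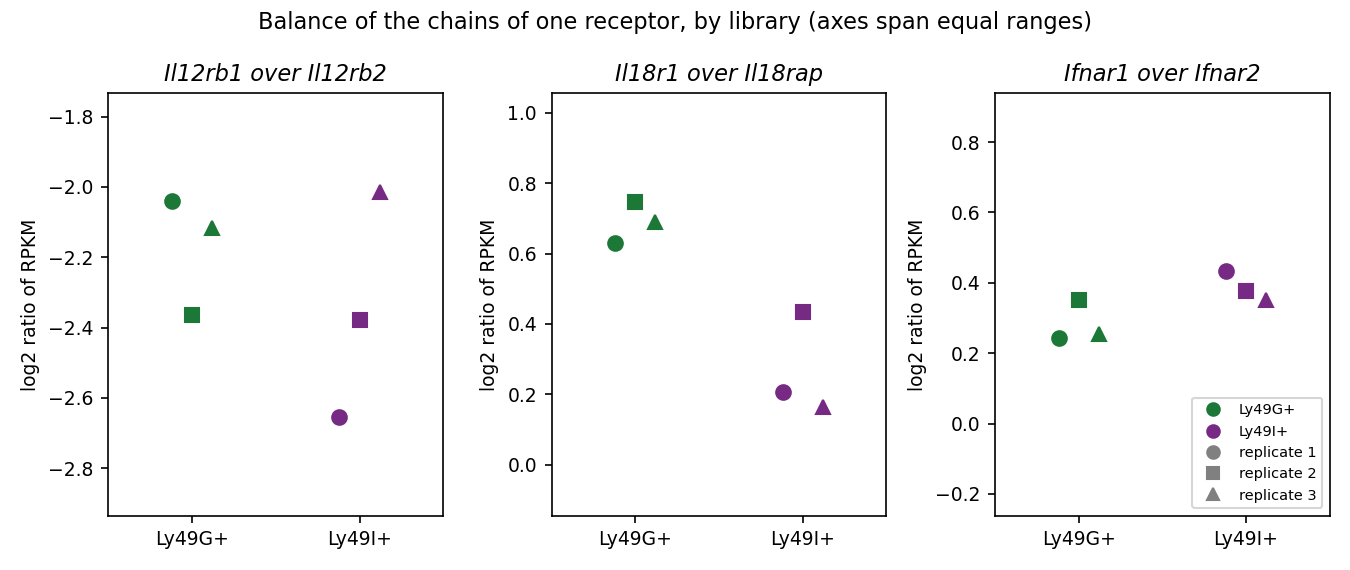
Log2 ratio of reads per kilobase of exon per 1000000 reads (RPKM) between the chains of one receptor, per library, with Ly49G+ on the left of each panel and marker shapes for the replicate numbers. The Il18r1 over Il18rap panel shows the Ly49G+ libraries above the Ly49I+ libraries, and the other panels show overlap.

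The ratio of Il12rb1 over Il12rb2 overlapped between the groups, with log2 means from CPM of -2.58 ± 0.17 in Ly49G+ and -2.75 ± 0.32 in Ly49I+ (SD, n = 3 each). Ly49I+ replicates 1 and 3 held the lowest and the highest ratio of all 6 libraries. The ratio of Ifnar1 over Ifnar2 also overlapped, at 0.58 ± 0.06 in Ly49G+ and 0.69 ± 0.04 in Ly49I+.

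The interferon receptor chains differed little. Ifnar1 (gene 15975, chromosome 16, 91485032 to 91510523), the type I chain that binds TYK2, had 202, 222 and 218 CPM in the Ly49G+ libraries, against 222, 224 and 223 CPM in the Ly49I+ libraries. The groups did not overlap, but the highest Ly49G+ library and the lowest Ly49I+ library were nearly level. The log2 difference was -0.06 ± 0.07 (SE, limma adjusted p = 0.631), and its 95% interval of -0.21 to 0.09 leaves room for ratios of 0.862 to 1.06. Groups that did not overlap were seen in 3 of the 7 members, all lower in Ly49G+, where 25.8% of all genes had such groups, 12.5% with Ly49G+ higher and 13.4% with Ly49G+ lower.

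Ifnar2 (gene 15976, chromosome 16, 91372783 to 91405589), the partner chain that binds JAK1, had 139, 141 and 148 CPM in the Ly49G+ libraries, against 133, 140.1 and 142 CPM in the Ly49I+ libraries. The groups overlapped. The log2 difference was 0.04 ± 0.07 (SE, limma adjusted p = 0.761), with a 95% interval of -0.11 to 0.20. The gene overlaps Gm36587, a long noncoding RNA gene.

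Ifngr1 (gene 15979, chromosome 10, 19591949 to 19610229), the chain that binds interferon gamma, had 543, 554 and 608 CPM in the Ly49G+ libraries, against 548, 666 and 608 CPM in the Ly49I+ libraries. The groups overlapped, and the highest value was in Ly49I+ replicate 2, the library with the highest sum of monocyte and macrophage markers. The log2 difference was -0.09 ± 0.09 (SE, limma adjusted p = 0.565), with a 95% interval of -0.29 to 0.10, and -0.03 without Ly49I+ replicate 2. The part of those cells in the value was not tested.

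**Figure D3:**
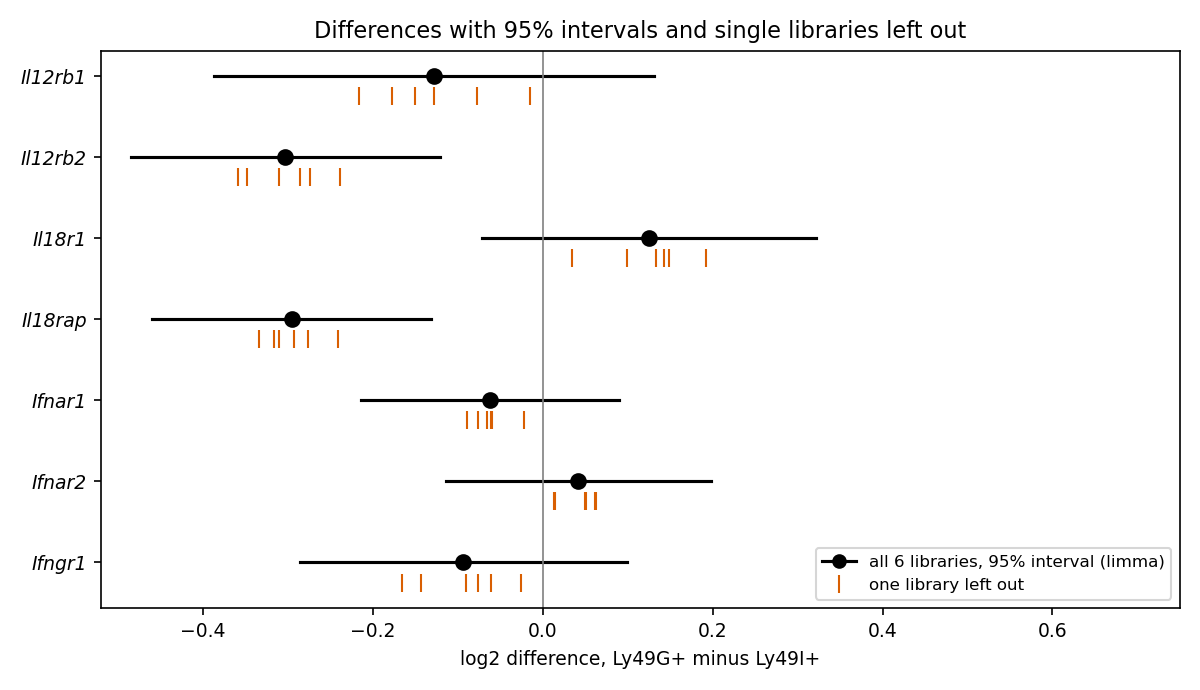
Log2 difference of Ly49G+ minus Ly49I+ for each receptor gene (dot) with its 95% interval from limma (line), and the value with one library left out at a time (ticks). The intervals of Il12rb2 and Il18rap lie wholly below zero before adjustment, and no tick crosses zero for any of the 7 genes.

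**Figure D4:**
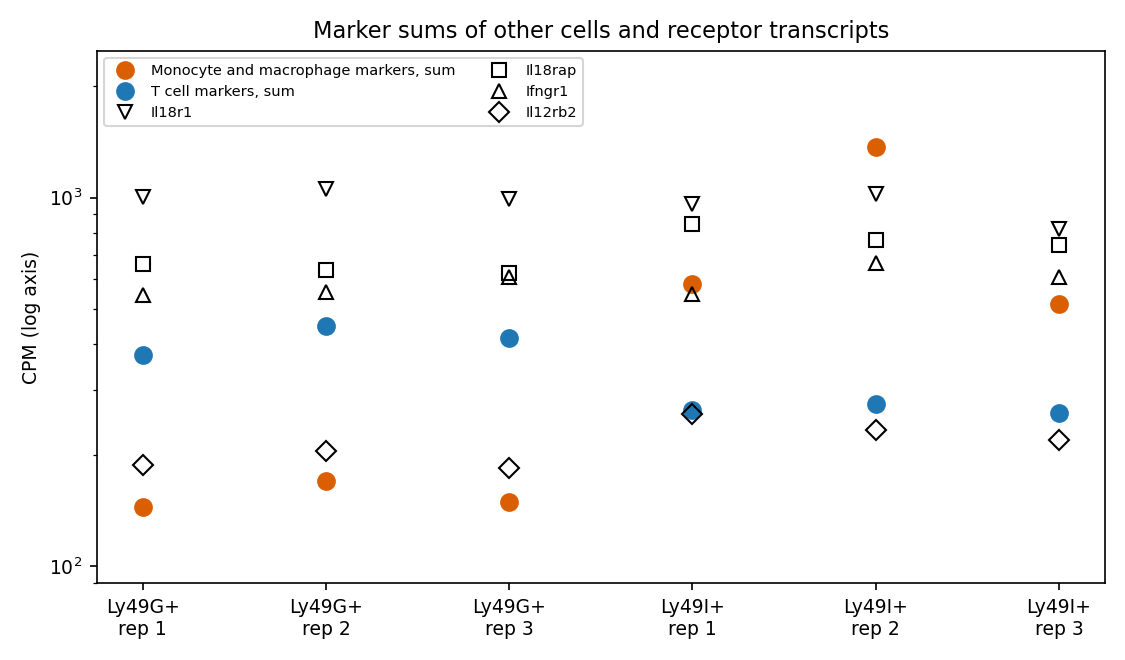
Summed CPM of the monocyte and macrophage markers and of the T cell markers, and CPM of 4 receptor genes, for each library on a log axis, Ly49G+ libraries on the left. The monocyte and macrophage sum is highest in Ly49I+ replicate 2, while Il12rb2 and Il18rap are highest in Ly49I+ replicate 1.

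The other-cell markers moved with the group for Il12rb2 and Il18rap as well. Within Ly49I+, the monocyte and macrophage sum was 581, 1368 and 513 CPM in replicates 1, 2 and 3, while both receptor genes were highest in replicate 1. Without Ly49I+ replicate 2 the log2 differences were -0.31 for Il12rb2 and -0.31 for Il18rap against -0.30 for each with all libraries. Ly49I+ replicates 1 and 3, which remain in that fit, still had higher monocyte and macrophage sums than any Ly49G+ library. The T cell sum was higher in Ly49G+. The part of either cell type in the receptor values was not tested. In bulk samples, fewer cells that carry a transcript and less transcript per cell cannot be told apart.

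Compared per kilobase of exon, from GENCODE M21 exon lengths, the members spanned a wide range of levels. Over the 6 libraries Ifngr1 ran from 257 to 315 RPKM, Il18r1 from 170.5 to 219 RPKM and Il18rap from 127 to 173 RPKM. Il18r1 and Il18rap overlapped across libraries, though Il18r1 was the higher of the pair within each library. Ifnar1 ran from 51.7 to 57.3 RPKM, Il12rb2 from 48.7 to 68.3 RPKM and Ifnar2 from 42.0 to 46.7 RPKM. The ranges of Ifnar1 and Il12rb2 overlapped. Ifnar1 was the higher of these in each Ly49G+ library and the lower in each Ly49I+ library. Il12rb1 was lowest, from 10.5 to 14.3 RPKM.

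The genes around these receptors were read from 8 lists of ligands, related receptors, signal carriers, regulators and response genes. Of the 88 genes measured, 81 did not pass, 4 were higher and 3 lower in Ly49G+ cells, with a median log2 difference of 0.03 against -0.02 over all genes. For these counts and those below, 3.59% of all genes passed, and 11.7% with the replicate block. An unadjusted limma p under 0.05 was reached by 19.8% of all genes. Among the kinases and STATs 0 of 11 passed in limma (2 at an unadjusted p under 0.05), and among the MyD88 branch genes 0 of 18 (3). With the replicate block 1 MyD88 branch gene was called, Tollip, an inhibitor of IL-1 receptor signalling, at -0.30 ± 0.08 (SE, limma adjusted p = 0.0287, and 0.101 without the block), and 1 was called without Ly49I+ replicate 1. Tyk2, the kinase on IL-12Rβ1 and IFNAR1, stood at 301 ± 4.61 CPM in Ly49G+ and 363 ± 52.5 CPM in Ly49I+ cells (SD, n = 3 each), a log2 difference of -0.26 ± 0.10 (SE, limma adjusted p = 0.175, and 0.0421 with the replicate block). Stat4, the main IL-12 signal carrier, differed by 0.07 ± 0.08 on the log2 scale (SE, limma adjusted p = 0.633).

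The genes listed as responding to IL-12 and IL-18 went both ways, 3 of 15 being higher and 3 lower in Ly49G+ and 9 not past the test. The list does not sort these genes by the direction of their response. With untreated cells no response to these cytokines was measured. With the replicate block 4 were higher and 5 lower, the added genes being Cd69, higher in Ly49G+, and the chemokine gene Ccl5 (-0.22 ± 0.06, SE, limma adjusted p = 0.04 with the block and 0.201 without it) and the protease gene Furin (-0.30 ± 0.09, SE, limma adjusted p = 0.0411 with the block and 0.292 without it), lower in Ly49G+. Csf2, which encodes the cytokine GM-CSF, led toward Ly49G+ with 15.7 ± 0.929 CPM in Ly49G+ and 7.26 ± 0.614 CPM in Ly49I+ cells (SD, n = 3 each). The chemokine gene Xcl1 and the transcription factor gene Eomes were also higher in Ly49G+, by 0.63 ± 0.12 and 0.39 ± 0.07 on the log2 scale (SE). The granzyme B gene Gzmb was lower in Ly49G+, at 588 ± 21.6 CPM in Ly49G+ and 817 ± 45.5 CPM in Ly49I+ cells (SD, n = 3 each). The other 2 lower genes, named after their values were seen, were the perforin gene Prf1 (-0.49 ± 0.10, SE, limma adjusted p = 0.0253) and Tbx21 (-0.42 ± 0.10, SE, limma adjusted p = 0.0441), which encodes the transcription factor T-bet. Ifng itself, at 225 ± 17.9 CPM in Ly49G+ and 213 ± 16.8 CPM in Ly49I+ cells (SD, n = 3 each), did not pass (limma adjusted p = 0.612). Of the 6 calls, 3, 1 and 2 were left without Ly49G+ replicates 1, 2 and 3 and 3 without the intensity trend. Tbx21 and Prf1 also missed the threshold without Ly49I+ replicate 2, with limma adjusted p-values of 0.0518 and 0.054, and Tbx21 with a minimum mean of 5 log2 CPM (0.0513).

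Among related receptors and decoys 1 of 7 was higher in Ly49G+ and 6 did not pass. The called gene was Il6st, the gp130 chain shared by IL-6 and IL-27 receptors, at 36.6 ± 4.46 CPM in Ly49G+ and 20.7 ± 2.93 CPM in Ly49I+ cells (SD, n = 3 each, limma adjusted p = 0.00686, and 0.0546 without Ly49G+ replicate 2). With the replicate block Il10ra, a chain of the IL-10 receptor, was also called, lower in Ly49G+ (limma adjusted p = 0.017). The interferon response lists held no call in the fit without a block, with 0 of 11 type I genes (3 at an unadjusted p under 0.05) and 0 of 18 interferon gamma genes (2) past limma's test. The type I genes Ifi44 and Ifit1 came nearest, with log2 differences of 0.78 ± 0.19 and 0.52 ± 0.13 (SE), limma adjusted p-values of 0.0526 and 0.0548, and 0.016 and 0.026 with the replicate block. The type I list had 2 calls without the intensity trend, with the robust prior, after median centring and after quantile normalization, and 1 with voom weights and without Ly49I+ replicate 1. The interferon gamma list had 1 call with the replicate block, the GTPase gene Gbp9 (0.26 ± 0.07, SE, limma adjusted p = 0.0229, and 0.111 without the block), and 1 without Ly49I+ replicate 1. Among the negative regulators 0 of 8 passed (2 at an unadjusted p under 0.05), and Ifng was the 1 measured ligand of 10 listed.

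**Figure D5:**
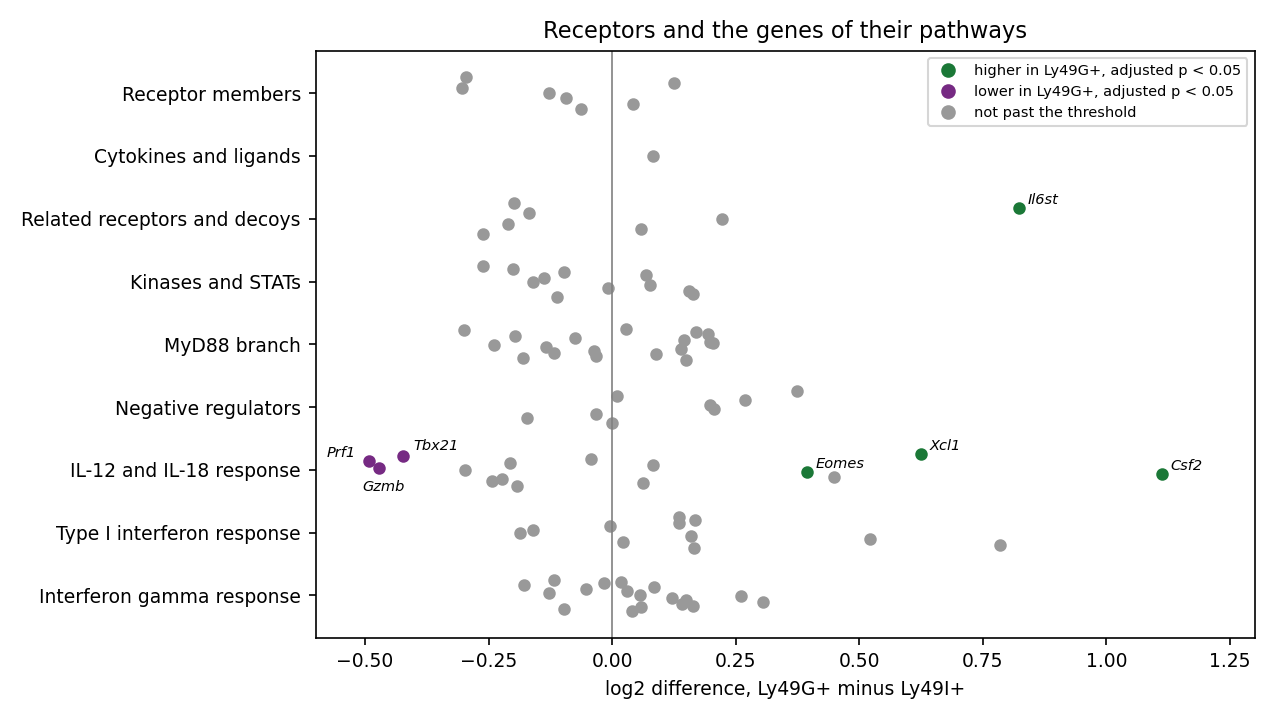
Log2 difference of Ly49G+ minus Ly49I+ for the receptor genes and for each measured gene of the 8 pathway lists, coloured by whether limma's adjusted p was under 0.05. The receptor genes lie between -0.30 and 0.12, and the 7 called genes are named. The genes of all 8 lists run from -0.49 (Prf1) to 1.11 (Csf2). Only the list of genes responding to IL-12 and IL-18 reaches below Il12rb2.

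For each member the 2 genes with the most similar log2 CPM over the 6 libraries were sought among the other 8519. They were Ctdp1 (r = 0.998) and Scrib for Il12rb1, Daam1 (r = 0.987) and Vopp1 for Il12rb2, Ripk2 (r = 0.994) and Fnbp4 for Il18r1, and Smpd2 (r = 0.997) and Cdk14 for Il18rap. For the interferon receptors they were Trmt10b (r = 0.996) and Tk1 for Ifnar1, Gpi1 (r = 0.988) and Slc7a6 for Ifnar2, and Bhlhe40 (r = 0.993) and Arf3 for Ifngr1. All 14 Pearson correlations lay between 0.979 and 0.998 on the deposited values. After quantile normalization r was 0.757 for Daam1, 0.894 for Smpd2, 0.845 for Trmt10b and 0.861 for Tk1. With only 6 libraries, and 8519 genes searched for each member, they describe these libraries only. Cdk14 alone of the 14 passed the test between the groups, at a log2 difference of -0.55 ± 0.10 (SE, limma adjusted p = 0.0128).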

How the data were processed

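RNA was sequenced from 3 Ly49G+ and 3 Ly49I+ sorted splenic NK cell libraries. Per the labels' protocols, stranded total RNA libraries were made from 0.4 µg of RNA and read as pairs of 100 bases. CASAVA 1.8.2, STAR 2.3.0, limma and mm10 are named, per the submitters' processing notes; no read counter, annotation or low-gene filter is named there. The authors deposited log2 CPM for 8520 genes. Solving voom's formula (0.5 added to each count, 1 to the total) gave whole reads for 100% of values within 0.001 read. Every gene reached 10.0 CPM in at least 2 libraries.

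From these values, limma 3.58.1 in R 4.3.3 fitted Ly49G+ minus Ly49I+ with an intensity trend over all genes, two-sided, with Benjamini-Hochberg adjustment. Steps were tested on simulated data, with 200 of 8520 genes changed and the same dispersion for all genes. Of changes of 0.3 on the log2 scale 30% were called, and of changes of 0.5 96%. A difference near 0.3 can thus be missed. Symbols came from RefSeq GRCm38.p6, the assembly behind mm10, for 8429 genes, and from GENCODE for 1. RPKM used GENCODE M21 exon lengths. The members, lists and tests were chosen with earlier results of these data known, and several monocyte and macrophage markers were first noticed in these libraries. Genes named by rule were all measured members, up to 4 called genes per list by p, and the 2 most similar genes per member. Others were named outside this rule with their values known. Among these were Tyk2, Stat4, Tollip, Ccl5, Furin, Cd69, Il10ra, Il10rb, Ifi44, Ifit1 and Gbp9. The labels give both groups replicate numbers 1 to 3. Over all genes, deviations of same-numbered libraries from their group means correlated at 0.371, 0.114 and 0.156, above 0.1 in all 3 pairs, so blocked values are printed where they change a call. Ly49G+ replicate 3 correlated more with Ly49I+ replicate 2 (0.359) than with its own number. Ly49G+ replicate 2 correlated slightly more with Ly49I+ replicate 1 (0.1152) than with its own number (0.1142). The labels do not say that equal numbers mark pairs, so the block is an assumption. Alternatives were the block, no trend, a robust prior, voom weights, median centring, quantile normalization, 5 added reads, a minimum mean of 5 log2 CPM and each library left out. Tables were handled with Python 3.11.15, pandas 2.3.3 and numpy 2.4.6, and plots with matplotlib 3.10.9.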

Additional observations from a re-analysis of the deposited data

How the results depend on the processing

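All 7 receptor genes kept the direction of their difference in all 14 alternatives. The block, the fit without a trend, the robust prior and the minimum mean leave the log2 difference itself unchanged. The direction could therefore not differ in those. The number past the threshold, 0 in the reported fit, was 2 with the replicate block and 1 after quantile normalization, and from 0 to 2 when single libraries were left out. With the block Il12rb2 (-0.30) and Il18rap (-0.30) passed, and no other receptor gene's call changed. After quantile normalization Il18rap (-0.31) passed. With single libraries left out the log2 difference ran from -0.36 to -0.24 for Il12rb2 and from -0.33 to -0.24 for Il18rap, and both passed only without Ly49I+ replicate 3. Their adjusted p-values over all alternatives ran from 0.0156 to 0.235 for Il12rb2 and from 0.00958 to 0.232 for Il18rap. Over all genes 306 were called, against 993 with the block, 178 with a minimum mean of 5 log2 CPM, which tests fewer genes, and 94 to 644 with single libraries left out. The pathway lists had 7 calls, against 16 with the block, 4 with that minimum, and 1 to 13 with single libraries left out. The causes were not tested. Leaving out a library also leaves fewer samples.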

Other observations

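Within 100000 bases of the 9 listed chains lie 13 other measured genes. None was called by limma, where 3.59% of all genes were, and 3 had an unadjusted p under 0.05, where 19.8% of all genes did. Il10rb, which encodes a chain of the IL-10 receptor and lies between Ifnar2 and Ifnar1, stood at 181 ± 15.3 CPM in Ly49G+ and 174 ± 5.70 CPM in Ly49I+ cells (SD, n = 3 each). The other IL-10 receptor chain gene, Il10ra, stood at 335 ± 4.59 CPM in Ly49G+ and 401 ± 11.2 CPM in Ly49I+ cells (SD, n = 3 each), a log2 difference of -0.26 ± 0.06 (SE, limma adjusted p = 0.055, and 0.017 with the replicate block). Cd69, an activation marker, differed by 0.45 on the log2 scale (limma adjusted p = 0.0745, and 0.00815 with the replicate block).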
